A study of Mus musculus with 24 samples.

Results

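The chromatin around 7 genes of oxylipin metabolism, Alox15, Alox12, Alox12b, Alox8, Aloxe3, Ephx1 and Ephx2, was examined by ATAC-seq, which counts the DNA fragments that a transposase can cut out of open chromatin. A peak of the consensus peak set (mm10) was taken as a member when it overlapped the gene body of one of these genes or the 20000 bp on either side in the GENCODE vM21 annotation, and each peak went to its nearest gene. This rule, which uses position only, gave 39 of 184158 consensus peaks. Ephx1 had 13 of them, Alox12 had 9, Aloxe3 had 7, Alox15 and Ephx2 had 3 each, and Alox12b and Alox8 had 2 each.

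The samples were bone marrow-derived macrophages (BMDMs) of C57BL/6J wildtype (WT) mice and of mice with a germline null allele of the aryl hydrocarbon receptor (AhR-KO, B6.129-Ahr tm1Bra/J), of both sexes, with marrow taken from femur and tibia. All cultures had been differentiated with GM-CSF at 10 ng/ml and TGF-β at 2 ng/ml, a mixture that gives cells resembling alveolar macrophages, so the cells model that type in culture and were not taken from the lung. LPS, a bacterial cell wall product, was given at 97 EU/ml on day 6 for 24 h, and a calcium ionophore (A23187, 5 µM) for 10 min at the end. The labels repeat this treatment text for every library, so whether the unstimulated cultures also received the ionophore could not be read from them. The 2 genotypes, each without stimulation and with LPS, made 4 groups of 6 libraries.

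Lipoxygenases insert oxygen into polyunsaturated fatty acids at a defined carbon. Alox15 is the 12/15-lipoxygenase of mouse eosinophils and resident macrophages, Alox12 the platelet-type 12-lipoxygenase and Alox8 the mouse 8-lipoxygenase. Alox12b and Aloxe3 act one after the other in the epidermis to build the skin barrier. Ephx1 encodes microsomal epoxide hydrolase, which detoxifies xenobiotic epoxides, and Ephx2 encodes soluble epoxide hydrolase, which turns fatty acid epoxides into diols. AhR is switched on by ligands and then binds DNA together with Arnt, and drug-metabolizing enzymes are its best known targets.

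The sequences of the 6 intergenic and intronic peaks on which the results below turn are given here, read from the GRCm38.p6 genome on the plus strand, as the whole peak or, for peaks longer than 300 bases, its central 300. Capitals mark matches on either strand to GCGTG, the core bound by AhR and Arnt, to TGACNNNGC, the antioxidant response element of NRF2, or to TTC and GAA separated by 4 bases, the STAT6 motif. They were chosen after their values were seen. They are the 4 peaks at which the response to LPS differed between genotypes by the criterion used below, an Ephx1 intronic peak that differed with genotype under LPS, and the tested peak with the largest LPS response.
Ephx2, 1856 bp upstream of the nearest TSS, chr14:66126239-66126472: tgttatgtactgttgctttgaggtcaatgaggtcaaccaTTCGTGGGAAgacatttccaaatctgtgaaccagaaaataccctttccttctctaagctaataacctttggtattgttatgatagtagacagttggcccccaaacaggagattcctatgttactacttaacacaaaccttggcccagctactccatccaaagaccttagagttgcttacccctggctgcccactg
Ephx1, intron, 7452 bp downstream of the TSS, chr1:181009967-181010266: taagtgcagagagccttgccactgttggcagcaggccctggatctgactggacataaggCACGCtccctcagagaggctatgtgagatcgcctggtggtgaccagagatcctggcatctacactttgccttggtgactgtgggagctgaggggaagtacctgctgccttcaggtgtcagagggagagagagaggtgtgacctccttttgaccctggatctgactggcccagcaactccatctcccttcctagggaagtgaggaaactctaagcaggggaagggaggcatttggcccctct
Ephx1, intron, 1816 bp downstream of the TSS, chr1:181015630-181015875: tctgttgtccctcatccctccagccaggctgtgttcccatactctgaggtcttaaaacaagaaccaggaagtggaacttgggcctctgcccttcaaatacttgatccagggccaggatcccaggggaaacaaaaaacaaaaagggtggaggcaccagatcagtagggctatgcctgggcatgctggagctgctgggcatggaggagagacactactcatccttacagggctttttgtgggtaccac
Ephx1, intron, 26690 bp downstream of the TSS, chr1:180990746-180991012: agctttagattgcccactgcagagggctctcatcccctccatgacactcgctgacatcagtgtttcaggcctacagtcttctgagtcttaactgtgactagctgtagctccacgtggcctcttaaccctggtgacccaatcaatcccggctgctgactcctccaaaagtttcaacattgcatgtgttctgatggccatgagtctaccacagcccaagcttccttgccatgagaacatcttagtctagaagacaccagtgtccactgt
Alox12, 8824 bp upstream of the nearest TSS, chr11:70264087-70264267: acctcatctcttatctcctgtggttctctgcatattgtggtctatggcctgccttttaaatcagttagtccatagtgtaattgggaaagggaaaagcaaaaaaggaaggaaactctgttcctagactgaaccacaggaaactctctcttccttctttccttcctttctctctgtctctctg
Alox12b, 2709 bp upstream of the TSS, chr11:69154131-69154430: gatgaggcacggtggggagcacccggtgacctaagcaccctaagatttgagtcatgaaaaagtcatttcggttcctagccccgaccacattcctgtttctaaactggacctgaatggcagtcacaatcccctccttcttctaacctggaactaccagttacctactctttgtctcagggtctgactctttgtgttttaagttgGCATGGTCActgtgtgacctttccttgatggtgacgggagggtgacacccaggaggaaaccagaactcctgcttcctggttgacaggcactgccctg
The Ephx2 element held 1 STAT6 motif, the Ephx1 element at 7452 bp held 1 AhR core, and the Alox12b element held 1 antioxidant response element, while these letters were not in the windows of the other 3.

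Library depth and cell identity were checked before the genes were compared. Counts in peaks per library came to 8.54 to 23.1 M in resting WT and 18.9 to 25.7 M in resting AhR-KO cells, and with LPS to 25.1 to 34.6 M and 22.4 to 28.5 M. The shallowest library was WT unstimulated replicate 5. Values are CPM, the counts in a peak per M counts of its library, scaled by TMM, which corrects for differences in library composition. The peak over the Ahr TSS, which the null allele need not remove, was at 22.5 ± 1.66 CPM (SD, n = 6) in resting WT and 13.2 ± 1.197 CPM in resting AhR-KO libraries. With LPS it was at 20.1 ± 1.19 and 14.7 ± 1.84 CPM, and in both treatments the ranges of the 2 genotypes were apart. Of 7 macrophage markers, 6 (Csf1r, Adgre1, Cd68, Lyz2, Mertk, Itgax) had a peak over their TSS, whereas none of 3 T cell, 3 B cell and 3 mast cell and basophil markers had one. The only eosinophil marker of 3 with a TSS peak, Ccr3, lay between 0.196 and 1.38 CPM in the 24 libraries. TSS peaks were also found at 2 of 4 dendritic cell markers (summed CPM 18.1 to 34.6), 2 of 5 neutrophil markers (13.8 to 27.7), 2 of 3 megakaryocyte and platelet markers (6.20 to 16.1) and 1 of 3 epithelial markers, Epcam (3.80 to 7.26). In bulk libraries, fewer cells with an open site and less opening per cell cannot be told apart.

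At the transcription start sites, the Alox12 peak opened and the Ephx1 peak closed with LPS. Peaks over a TSS that differed with genotype (edgeR adjusted p at most 0.05) were Alox12, Ephx1 and Aloxe3 at rest. With LPS they were Alox12, Aloxe3 and Ephx2. None of these genotype differences reached 1.5-fold. At this threshold on p alone, 40.1% of all tested peaks, over a TSS or not, were called at rest and 44.7% with LPS. Accessibility per kb of TSS peak in WT unstimulated cells was highest at Aloxe3, with 6.93 ± 0.440 CPM per kb, followed by Ephx1 with 6.62 ± 0.327 and Ephx2 with 6.45 ± 0.422, and these neighbours did not differ beyond their spread. Alox12 stood lower at 2.49 ± 0.348 CPM per kb. Alox15 at 1.52 ± 0.643 and Alox8 at 1.11 ± 0.283 CPM per kb again overlapped in their spread. Alox12b had no peak over its TSS, and the nearest one, 2486 bp away, was at 0.485 ± 0.0578 CPM per kb. The Aloxe3 peak is 3889 bp wide and also covers the TSS of 9130213A22Rik and part of Hes7, so its level is not that of the Aloxe3 promoter alone.

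**Figure D1:**
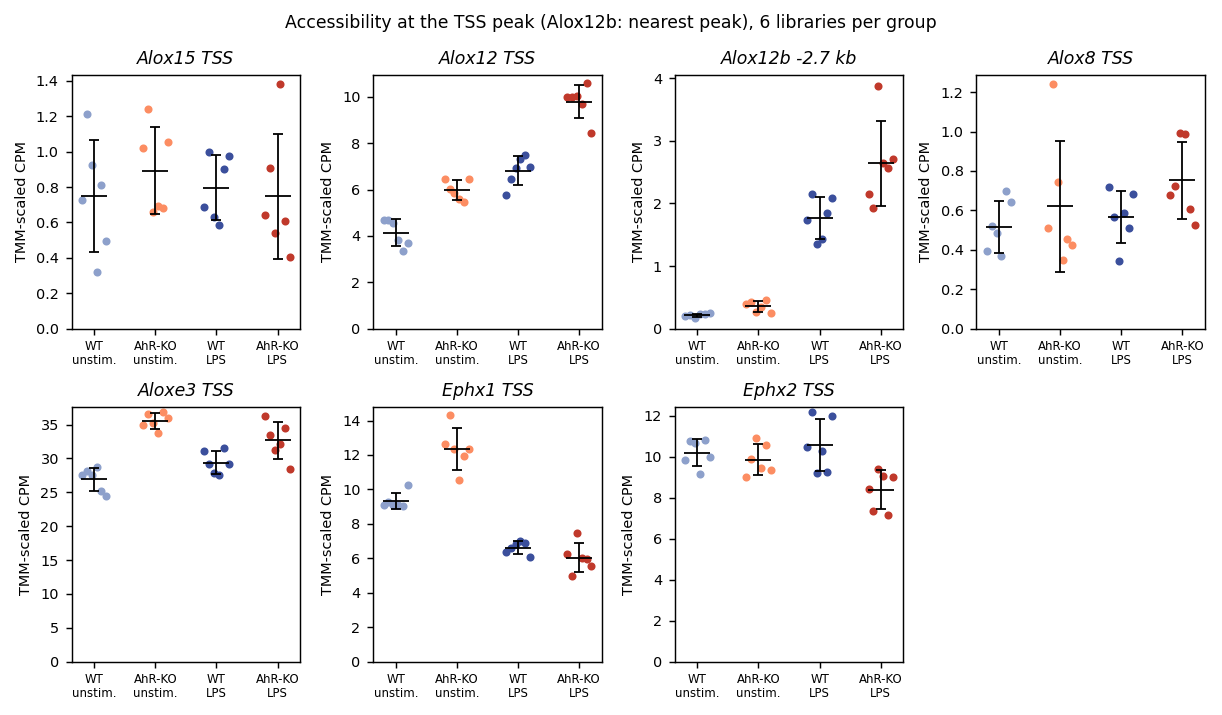
TMM-scaled CPM at the peak over the TSS of each gene, or 2.7 kb upstream for Alox12b, in the 4 groups. Points are single libraries (6 per group), and bars give the mean ± SD. The Alox12 levels rise from 4.14 CPM in WT unstimulated to 9.79 CPM in AhR-KO LPS libraries, whereas Alox15 and Alox8 stay near or below 1 CPM in every group.

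The Alox12 TSS peak, on chromosome 11 from 70253787 to 70255448, was more open in AhR-KO than in WT cells and more open with LPS. In WT unstimulated libraries it ranged from 3.37 to 4.69 CPM with a median of 4.20, and in AhR-KO unstimulated libraries from 5.46 to 6.47 with a median of 5.96. With LPS, WT libraries ranged from 5.77 to 7.48 (median 6.94) and AhR-KO libraries from 8.45 to 10.6 (median 9.98). The genotypes did not overlap in either treatment. The LPS response was almost the same size in both, with a log2 fold change of 0.70 ± 0.10 (SE) in WT and 0.71 ± 0.09 in AhR-KO cells (edgeR quasi-likelihood test, Benjamini-Hochberg adjusted p = 7.65e-08 and 1.09e-08). The genotype difference was 0.52 ± 0.10 without LPS (edgeR adjusted p = 6.69e-05) and 0.52 ± 0.09 with LPS (edgeR adjusted p = 6.27e-06). Each was a 1.43- to 1.44-fold difference and so stayed under the 1.5-fold that, with an adjusted p of at most 0.05, defines a differentially accessible region (DAR) here.

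The Ephx1 TSS peak (chromosome 1, 181016534 to 181017938) closed with LPS, and more so without AhR. Its level was 9.30 ± 0.460 CPM at rest and 6.62 ± 0.369 with LPS in WT cells, and 12.3 ± 1.21 at rest and 6.02 ± 0.837 with LPS in AhR-KO cells. LPS lowered it by a log2 fold change of -0.49 ± 0.09 in WT, which missed the fold threshold, and of -1.04 ± 0.09 in AhR-KO cells, a DAR (edgeR adjusted p = 7.52e-06 and 4.60e-13). The resting AhR-KO libraries, at 10.5 to 14.3 CPM, all lay above the WT libraries at 9.06 to 10.2 CPM, a log2 difference of 0.40 ± 0.09 (edgeR adjusted p = 2.42e-04). After LPS the genotypes overlapped. The interaction, which is the genotype difference with LPS minus that without, was -0.54 ± 0.12 on the log2 scale (edgeR adjusted p = 0.00243) and also under the fold threshold. It passed that threshold without WT unstimulated replicate 6, AhR-KO unstimulated replicate 4 or AhR-KO LPS replicate 3, with values of -0.63 to -0.59, and on all 24 libraries with RLE size factors and with DESeq2 (-0.59 each).

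At Alox15, the 12/15-lipoxygenase itself, the TSS peak (chromosome 11, 70351624 to 70352115) was low in every group. It lay between 0.321 and 1.21 CPM in WT unstimulated libraries (median 0.769) and between 0.657 and 1.24 (median 0.857) in AhR-KO unstimulated libraries. With LPS the ranges were 0.585 to 0.996 (median 0.794) in WT and 0.404 to 1.38 (median 0.627) in AhR-KO libraries. All 4 groups overlapped, the peak was a DAR in no comparison, and the authors' peak caller had found it in 4 of 24 libraries. The TSS peak of Alox8 was at 0.518 ± 0.131 CPM at rest and 0.567 ± 0.134 with LPS in WT cells and at 0.620 ± 0.333 and 0.753 ± 0.195 in AhR-KO cells, was no DAR either and was called in 1 of 24. The Ephx2 TSS peak, at 10.2 ± 0.666 and 10.6 ± 1.28 CPM in WT and at 9.86 ± 0.737 and 8.39 ± 0.952 CPM in AhR-KO cells, was called in all 24 libraries. Under LPS it was lower in AhR-KO cells by 0.33 ± 0.09 on the log2 scale, that is a change of -20.6%, below the fold threshold (edgeR adjusted p = 0.00169), with 5 of 6 AhR-KO libraries under the lowest WT library. At Aloxe3 the TSS peak was at 26.95 ± 1.71 and 35.6 ± 1.19 CPM in resting WT and AhR-KO cells, a log2 difference of 0.40 ± 0.06 (edgeR adjusted p = 9.28e-07) that again stayed under the fold threshold.

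Over the 38 of 39 member peaks that passed the filter on low counts, genotype gave a smaller share of calls than over all peaks. In unstimulated cells 4 member peaks were DARs, all higher in AhR-KO, which is 10.5% of those tested against 22.6% of all 174193 peaks tested (9.96% higher and 12.6% lower). None was lower by edgeR or by DESeq2, and at an unadjusted edgeR p under 0.05 the counts were 16 higher and 0 lower, against 22.4% higher and 24.8% lower among all tested peaks. With RLE size factors, another scaling for library composition, the 4 became 7, which is 18.4% of member peaks against 22.99% of all peaks. With LPS 5 were DARs, 2 higher and 3 lower in AhR-KO, which is 13.2% against 26.5% of all peaks. The 2 became 5 without WT LPS replicate 2, and 4 without WT LPS replicate 5 or 6 or AhR-KO LPS replicate 5. DESeq2, run on all 39 member peaks without the low-count filter, also gave 4 higher. In either direction it called 7 of 39, which is 17.9% against 25.6% of all peaks. In unstimulated cells, 14 member peaks had an edgeR adjusted p of at most 0.05 with no fold threshold, all higher in AhR-KO, against 40.1% of all peaks in either direction. With LPS 12 did, 8 higher and 4 lower, against 44.7% of all peaks. The median log2 difference of the member peaks was 0.29 in unstimulated and 0.13 in LPS-treated cells, while that of all tested peaks was -0.02 and 0.02.

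In resting cells the positive differences were most uniform around Alox12 and Aloxe3. All 9 Alox12 and all 6 tested Aloxe3 peaks had a positive difference. 4 of the Alox12 peaks lie over the TSS of a neighbour (Slc16a13, Bcl6b, 0610010K14Rik and the Rnasek locus), so that the difference was not limited to sequence belonging to Alox12. Over the 12616 tested peaks that cover a TSS of any gene the median was -0.01, and 5.57% were DARs in unstimulated cells. The summed CPM at the macrophage marker TSS peaks was also higher in resting AhR-KO libraries (134 to 175) than in resting WT libraries (111 to 124), and its part in this difference was not tested. Other marker sums moved the other way with genotype. At rest, the megakaryocyte and platelet sum (Itga2b and Pf4, the 2 of 3 markers with a TSS peak) was 10.96 to 12.96 in AhR-KO and 13.1 to 16.1 in WT libraries. With LPS, the dendritic cell sum (Flt3 and Zbtb46, 2 of 4 markers) was 18.1 to 22.8 in AhR-KO and 24.97 to 34.6 in WT libraries, and Epcam was at 3.80 to 4.68 and 5.10 to 6.18 CPM. Their part in the genotype differences was not tested either.

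LPS moved the member peaks about as often as peaks elsewhere. In WT cells 17 of 38 were DARs, 13 higher and 4 lower, which is 44.7% against 47.0% of all peaks. In AhR-KO cells 19 were, 11 higher and 8 lower, which is 50% against 48.8%. The interaction was a DAR at 4 peaks, all negative, which is 10.5% against 10.4% of all peaks (5.82% positive and 4.59% negative). A negative value means that LPS opened the site less, or closed it more, in AhR-KO than in WT cells. None was positive by edgeR or by DESeq2, and at an unadjusted edgeR p under 0.05 the counts were 2 positive and 14 negative, against 15.6% and 13.5% of all tested peaks. The 4 became 2 without WT unstimulated replicate 3, AhR-KO unstimulated replicate 2, WT LPS replicate 2 or AhR-KO LPS replicate 5. They became 6 with RLE size factors (15.8% of member peaks against 10.5% of all peaks) and 6 with DESeq2 (15.4% against 9.97%). In all, 21 peaks were DARs in at least 1 of these 5 comparisons and 17 in none.

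**Figure D2:**
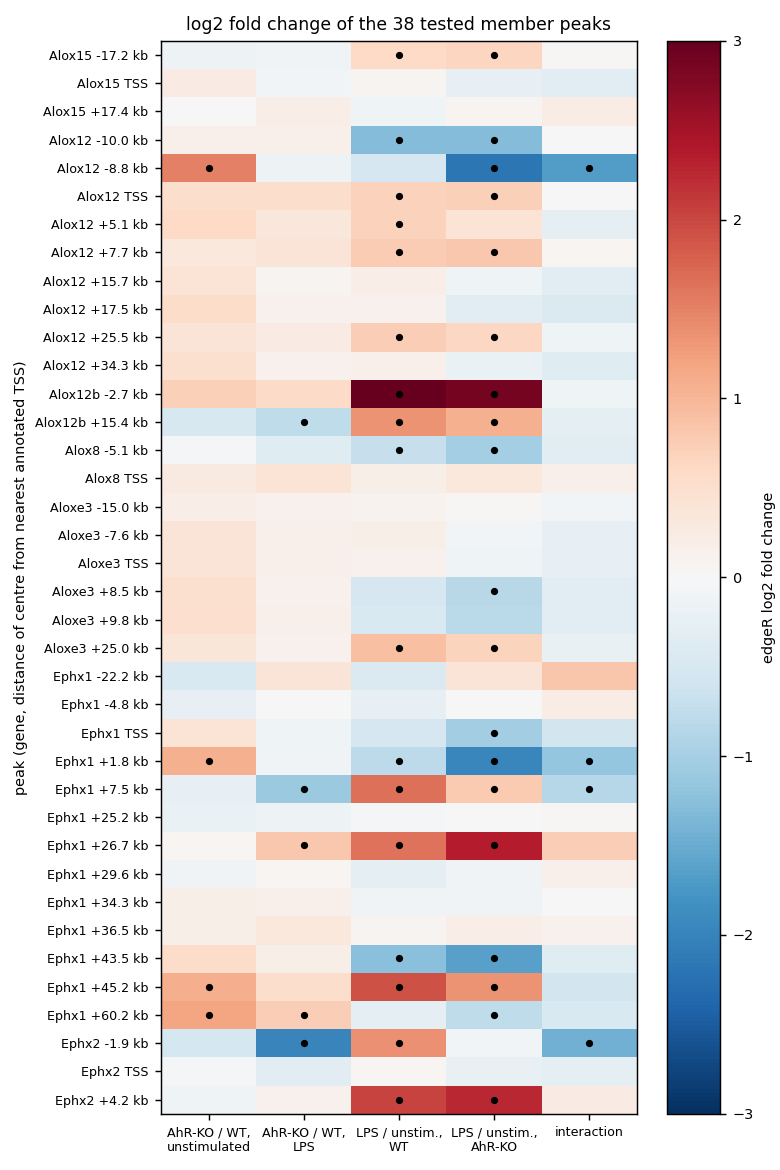
The edgeR log2 fold changes of the 38 tested member peaks (rows, named by gene and distance of the peak centre from the nearest annotated TSS in kb) in the 5 comparisons (columns), with red for higher and blue for lower. Black dots mark the DARs: 4 and 5 in the genotype columns, 17 and 19 in the LPS columns and 4 in the interaction column.

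Ephx1 had the most varied landscape, with neighbouring peaks moving in opposite directions. The intronic peak 7452 bp downstream of the TSS (chromosome 1, 181009848 to 181010385), whose sequence holds an AhR core, opened with LPS, and opened less without AhR. Resting libraries ranged from 0.737 to 0.988 CPM in WT (median 0.847) and from 0.507 to 0.867 in AhR-KO (median 0.723), and overlapped. After LPS, WT libraries ranged from 2.21 to 3.19 CPM (median 2.71) and AhR-KO libraries from 0.975 to 1.46 (median 1.33), with no overlap. LPS raised the level 3.16-fold in WT and 1.73-fold in AhR-KO cells (edgeR adjusted p = 2.86e-11 and 1.41e-04). The genotype difference under LPS was -1.12 ± 0.14 on the log2 scale (edgeR adjusted p = 6.26e-08), and the interaction was -0.86 ± 0.24 (edgeR adjusted p = 0.0130). The peak caller had found this site in no resting library, in 6 of 6 WT LPS libraries and in 3 of 6 AhR-KO LPS libraries.

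A further intronic peak, 26690 bp downstream of the TSS (180990746 to 180991012), behaved the other way round under LPS. It rose from 0.335 ± 0.0899 to 1.06 ± 0.294 CPM in WT cells and from 0.360 ± 0.124 to 1.85 ± 0.279 CPM in AhR-KO cells. The LPS response was thus 3.08-fold in WT and 5.12-fold in AhR-KO cells (edgeR adjusted p = 4.18e-07 and 7.40e-12). Only the LPS libraries let this peak pass the low-count filter, so its LPS responses compare the groups that admitted it with the others. With LPS it was 1.74-fold higher in AhR-KO (edgeR adjusted p = 3.12e-04), and 5 of 6 AhR-KO libraries lay above the highest WT library. The interaction was 0.73 ± 0.35 and did not pass the adjusted threshold (edgeR adjusted p = 0.161).

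Close to the Ephx1 promoter, the intronic peak 1816 bp downstream of the TSS (181015630 to 181015875) was open mainly in resting AhR-KO cells. It ranged from 0.395 to 1.33 CPM in WT unstimulated libraries (median 0.743) and from 1.52 to 2.32 (median 1.65) in AhR-KO unstimulated libraries, which did not overlap. With LPS it fell to 0.484 ± 0.137 CPM in WT and 0.457 ± 0.175 CPM in AhR-KO libraries, where the genotypes overlapped. The resting difference was 2.10-fold (edgeR adjusted p = 2.91e-04), the LPS response was -1.95 ± 0.24 on the log2 scale in AhR-KO and -0.78 ± 0.26 in WT cells (edgeR adjusted p = 6.03e-09 and 0.00996), and the interaction was -1.17 ± 0.36 (edgeR adjusted p = 0.0242). The WT response lost its call without WT unstimulated replicate 6 (-0.56, edgeR adjusted p = 0.0753), and the interaction did so without WT LPS replicate 2 (-1.06, edgeR adjusted p = 0.0504).

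Downstream of Ephx1, 3 DARs lay within the neighbouring gene Tmem63a. The peak from 180972061 to 180972664, with 3 antioxidant response element matches in its central 300 bases, stood at 2.83 ± 0.468 CPM in resting WT and 6.13 ± 0.591 in resting AhR-KO libraries, and at 10.9 ± 2.46 and 15.7 ± 0.934 CPM with LPS. It was thus 2.12-fold higher in resting AhR-KO cells (edgeR adjusted p = 3.17e-08) and rose with LPS 3.78-fold in WT and 2.56-fold in AhR-KO cells (edgeR adjusted p = 1.16e-15 and 2.38e-13). The adjacent peak from 180973538 to 180974695 fell instead, from 14.5 ± 1.40 to 6.04 ± 0.649 CPM in WT and from 21.3 ± 2.59 to 6.86 ± 0.866 CPM in AhR-KO cells (edgeR adjusted p = 3.51e-14 and 6.89e-18). The third peak (180957097 to 180957571) was higher in AhR-KO cells in both treatments, at 2.66 ± 0.343 against 1.15 ± 0.130 CPM at rest and 1.57 ± 0.106 against 0.954 ± 0.236 CPM with LPS (edgeR adjusted p = 8.46e-08 and 1.75e-04).

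**Figure D3:**
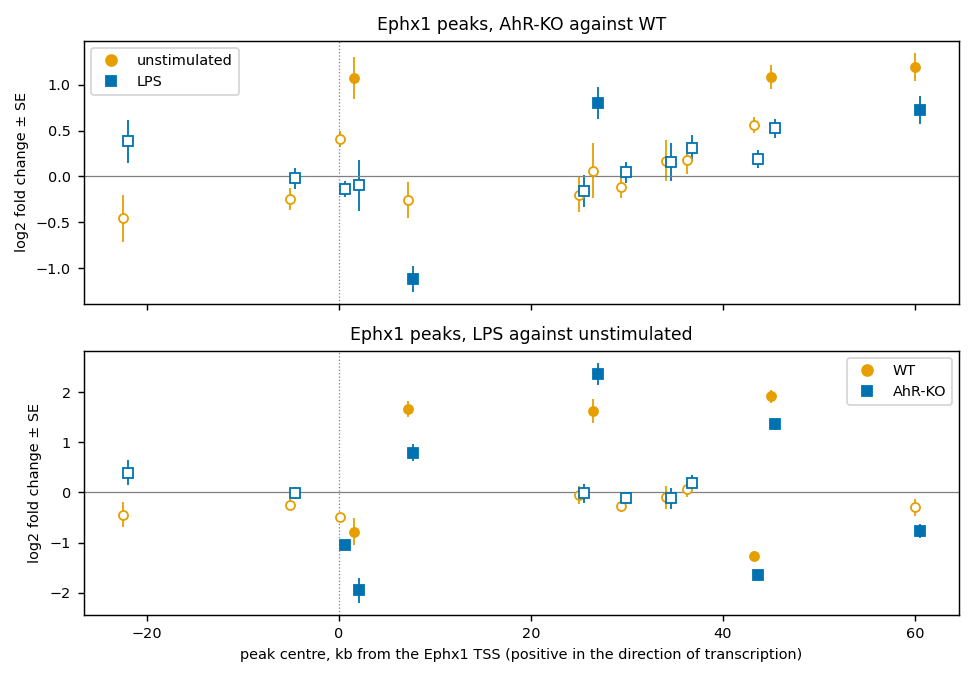
The log2 fold change of each of the 13 Ephx1 peaks against the distance of its centre from the Ephx1 TSS in kb, for genotype (upper panel, circles unstimulated, squares LPS) and for LPS (lower panel, circles WT, squares AhR-KO). Filled symbols are DARs, open symbols are not, bars are the SE, and paired symbols are set slightly apart. The peak 7452 bp from the TSS is the single genotype DAR that was lower in AhR-KO, at -1.12 with LPS.

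At Ephx2, where no comparison made the TSS peak a DAR, both other peaks changed with LPS. The peak 1856 bp upstream of the nearest TSS (chromosome 14, 66126239 to 66126472) opened with LPS in WT cells and was not detectably changed in AhR-KO cells. In WT libraries it ranged from 0.116 to 0.413 CPM at rest (median 0.393) and from 0.470 to 1.37 with LPS (median 1.001). In AhR-KO libraries it ranged from 0.127 to 0.378 CPM at rest (median 0.248) and from 0.122 to 0.315 with LPS (median 0.247). The WT LPS libraries lay above all others. These are 1 to 9 counts per library outside the WT LPS group and 12 to 42 counts within it, and the authors' caller had found a peak in 1 library, a WT LPS one. The WT response was 2.57-fold (edgeR adjusted p = 7.86e-05) and the genotype difference under LPS was -1.98 ± 0.29 on the log2 scale (edgeR adjusted p = 6.07e-07). Only the WT LPS counts let this peak pass the low-count filter, and its single call came from that group. These tests and the interaction below thus compare the group that admitted the peak with the others, and their p-values favour a difference.

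The interaction at this Ephx2 site, -1.45 ± 0.48 (edgeR adjusted p = 0.0343), was near its threshold. Its size stayed between -1.59 and -1.31 with any library left out. It lost its call without WT unstimulated replicate 3, AhR-KO unstimulated replicate 2 or 5, WT LPS replicate 1 or 6, or AhR-KO LPS replicate 4 or 5, with an edgeR adjusted p between 0.0511 and 0.0731. The second site, an intronic peak 4250 bp downstream of the nearest TSS (66106215 to 66106604), opened with LPS in both genotypes. It rose from 0.481 ± 0.0809 to 1.94 ± 0.636 CPM in WT, a 4.05-fold change, and from 0.437 ± 0.0612 to 2.12 ± 0.360 CPM in AhR-KO cells, a 4.81-fold change (edgeR adjusted p = 3.39e-10 and 6.79e-12). It was called as a peak in all 12 LPS libraries and in no resting library.

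Upstream of Alox12, the peak 8824 bp from the nearest TSS (chromosome 11, 70264087 to 70264267) was open mainly in resting AhR-KO cells, as was the Ephx1 peak next to its promoter. It ranged from 0.174 to 0.581 CPM in WT unstimulated (median 0.282) and from 0.613 to 1.19 CPM in AhR-KO unstimulated libraries (median 0.926), with no overlap. With LPS it lay between 0.0897 and 0.352 CPM in WT and between 0.0358 and 0.364 CPM in AhR-KO libraries, which overlapped. The resting difference was 2.86-fold (edgeR adjusted p = 6.18e-04), and LPS lowered the AhR-KO level by a log2 fold change of -2.18 ± 0.35 (edgeR adjusted p = 1.45e-06). The interaction was -1.68 ± 0.56 (edgeR adjusted p = 0.0364). It lost its call without any one of 12 libraries, namely replicates 1, 2 and 3 of WT unstimulated, 1, 2 and 5 of AhR-KO unstimulated, 2, 4 and 5 of WT LPS and 1, 2 and 5 of AhR-KO LPS, with values of -1.67 to -1.44 and an edgeR adjusted p of 0.0503 to 0.0708. Counts here were 14 to 29 per library in AhR-KO unstimulated and 1 to 11 in the other groups. The authors' caller had found this peak in 2 of 6 AhR-KO unstimulated libraries and in no other library. Only the AhR-KO unstimulated counts let it pass the low-count filter. The resting genotype, AhR-KO LPS and interaction tests thus compare the group that admitted the peak with the others, and their p-values favour a difference.

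Other Alox12 peaks responded to LPS. The peak 10030 bp upstream (70265252 to 70265514) fell from 1.41 ± 0.277 to 0.580 ± 0.130 CPM in WT and from 1.57 ± 0.345 to 0.642 ± 0.140 CPM in AhR-KO cells, 2.46-fold in both (edgeR adjusted p = 5.45e-07 and 2.96e-07). At the TSS of Bcl6b, a transcriptional repressor, the peak rose with LPS 1.68-fold in WT and 1.53-fold in AhR-KO cells (edgeR adjusted p = 4.06e-09 and 8.47e-08). The latter missed the fold threshold without AhR-KO unstimulated replicate 2 (log2 fold change 0.58), with RLE size factors or DESeq2 (0.57 each) and in the fit of the 2 groups alone (0.58).

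Alox12b, Aloxe3 and Alox8, which sit next to each other on chromosome 11, each had a peak that responded to LPS. The Alox12b peak 2709 bp upstream (69154057 to 69154503) showed the largest rise among the 38 tested member peaks in both genotypes. In WT libraries it ranged from 0.176 to 0.247 CPM at rest (median 0.223) and from 1.35 to 2.16 with LPS (median 1.79). In AhR-KO libraries it ranged from 0.254 to 0.455 CPM at rest (median 0.369) and from 1.92 to 3.87 with LPS (median 2.60). Every LPS library lay above every resting library, 8.01-fold higher on average in WT and 7.32-fold in AhR-KO cells (edgeR adjusted p = 2.77e-13 and 4.04e-15). It was called as a peak in all 12 LPS libraries and in no resting one. The LPS libraries alone also let it pass the low-count filter, so its LPS responses compare the groups that admitted it with the others. Its genotype difference with LPS, 0.58 ± 0.15 on the log2 scale, was just under the fold threshold (edgeR adjusted p = 0.00210). It passed without WT LPS replicate 2, 5 or 6 or AhR-KO LPS replicate 1, 2 or 5, with values of 0.59 to 0.66, and with RLE size factors or DESeq2 (0.59 each). At rest the difference was 0.71 ± 0.32 (edgeR adjusted p = 0.0906), and 0.81 with loess offsets (edgeR adjusted p = 0.0462).

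The other Alox12b peak, 15418 bp downstream of the TSS (69171882 to 69172932), was lower in AhR-KO cells after LPS. WT LPS libraries ranged from 0.987 to 1.88 CPM (median 1.29) and AhR-KO LPS libraries from 0.688 to 0.907 (median 0.843), with no overlap, a log2 difference of -0.76 ± 0.20 (edgeR adjusted p = 0.00181). It had risen with LPS from 0.568 ± 0.250 CPM in WT and from 0.392 ± 0.103 CPM in AhR-KO cells, 2.54- and 2.10-fold (edgeR adjusted p = 2.93e-06 and 2.90e-04). Counts at this site were 33 to 58 per WT LPS and 17 to 25 per AhR-KO LPS library. The authors' caller had found it in 2 of 6 WT LPS libraries and in no other library. The peak 5108 bp upstream of Alox8 (69202651 to 69203252) fell with LPS, 1.62-fold in WT and 2.03-fold in AhR-KO cells (edgeR adjusted p = 1.09e-04 and 3.37e-07), and its genotype difference with LPS, -0.36 ± 0.16, missed the threshold (edgeR adjusted p = 0.0550).

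**Figure D4:**
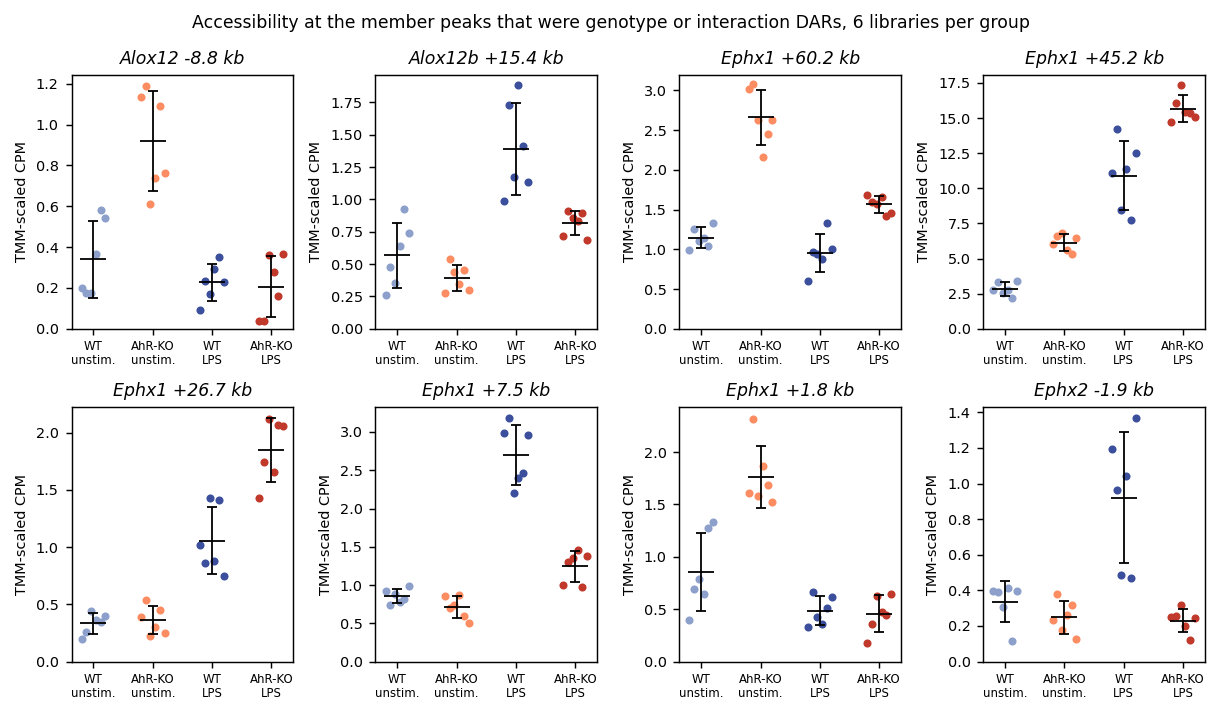
TMM-scaled CPM at the 8 member peaks that were genotype or interaction DARs, named by gene and distance from the nearest TSS, in the 4 groups, with points for single libraries (6 per group) and bars for mean ± SD. The Ephx2 peak and the Ephx1 peak 7452 bp from the TSS are highest in WT LPS libraries (0.920 and 2.70 CPM), whereas the Ephx1 peak 1816 bp from the TSS and the Alox12 peak are highest in AhR-KO unstimulated libraries (1.76 and 0.921 CPM).

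Within Aloxe3, an exonic peak 8491 bp downstream of the TSS (69133753 to 69135021), with 4 AhR cores in its central 300 bases, fell with LPS. It went from 8.98 ± 0.327 to 6.37 ± 0.329 CPM in WT cells, under the fold threshold, and from 12.5 ± 1.53 to 6.95 ± 1.27 CPM in AhR-KO cells, a 1.79-fold fall (edgeR adjusted p = 7.84e-10). At rest it was higher in AhR-KO by 0.48 ± 0.10 on the log2 scale (edgeR adjusted p = 1.07e-04). The peak 24995 bp downstream rose with LPS 1.86-fold in WT and 1.60-fold in AhR-KO cells (edgeR adjusted p = 0.00206 and 0.0106), the latter call being lost without AhR-KO LPS replicate 4 (log2 fold change 0.57) or with loess offsets (0.47, edgeR adjusted p = 0.0666). The authors' caller had found this downstream peak in 2 of 24 libraries, both of them WT LPS.

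The single LPS-responsive peak assigned to Alox15 lay 17250 bp upstream (70369132 to 70369430). It rose from 0.591 ± 0.145 to 0.939 ± 0.187 CPM in WT and from 0.544 ± 0.140 to 0.864 ± 0.218 CPM in AhR-KO cells (edgeR adjusted p = 0.0143 and 0.00924). The authors' caller had found this peak in 3 of 6 WT LPS and 2 of 6 AhR-KO LPS libraries, and in no resting library. The changes of 1.52- and 1.56-fold were near the threshold. The WT call was lost without WT unstimulated replicate 4 or 5 or WT LPS replicate 2 or 5 (log2 fold changes of 0.51 to 0.56), under the replicate block (0.57, both overall and within genotype) and with loess offsets (0.51). The AhR-KO call was lost without AhR-KO unstimulated replicate 2 or 3 or AhR-KO LPS replicate 5 (0.51 to 0.57) and with loess offsets (0.43, edgeR adjusted p = 0.0850).

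The 3 motifs were searched in the central 300 bases of every peak on both strands. The AhR core was present in 11 of 39 member peaks against 16.3% of 174106 tested peaks, the antioxidant response element in 6 against 12.8%, and the STAT6 motif in 3 against 8.34%. Of the member peaks with an AhR core, the Ephx1 peak at 7452 bp was the only genotype DAR, which was noticed after the values were seen. A match is a description of these letters and shows no binding. The count for the AhR core rose to 19 and that for the response element to 15 when whole peaks were searched. Promoter sequence of RefSeq was at hand for Ephx1, Alox12, Alox12b and Alox8, and none of these 4 held any of the motifs, against 32.4% of 32851 promoters for the AhR core.

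Other genes of the same lipid mediator pathways were examined for comparison. Over 19 genes of arachidonic acid release, the 5-lipoxygenase, cyclooxygenase and epoxygenase routes, peroxide reduction and receptors, 236 of 247 peaks were tested. In unstimulated cells 22 were higher and 27 lower in AhR-KO (20.8% DARs, against 22.6% of all tested peaks). With LPS 28 were higher and 29 lower (24.2% against 26.5%). LPS gave 60 higher and 55 lower in WT (48.7% against 47.0%), and 62 higher and 61 lower in AhR-KO cells (52.1% against 48.8%). The interaction was a positive DAR at 21 and a negative one at 13 (14.4% against 10.4%). A TSS peak was a genotype DAR at 3 of these 19 genes. Over the TSS peaks of any gene, 5.57% were genotype DARs in unstimulated cells and 6.42% with LPS. At Alox5, encoding 5-lipoxygenase, it was lower in AhR-KO with LPS (-0.77 ± 0.07 on the log2 scale, edgeR adjusted p = 4.67e-11). At Ptgs1 and Ptgs2, encoding the cyclooxygenases, it was lower in resting AhR-KO cells (-0.79 ± 0.07 and -0.61 ± 0.07, edgeR adjusted p = 1.20e-10 and 9.75e-09). With LPS the Ptgs2 TSS peak showed no detectable genotype difference (0.05 ± 0.06, edgeR adjusted p = 0.528). Its interaction was a positive DAR (0.66 ± 0.09, edgeR adjusted p = 8.01e-06). Of 10 tested Ptgs2 peaks, 7 were higher and 0 lower in AhR-KO with LPS.

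Among the peak over or nearest to the TSS of each gene, the widest ranges of group means on the log2(CPM + 0.1) scale were at Alox12b (3.09, the peak 2709 bp upstream) and Alox12 (1.23). Over the 24 libraries, the TSS peaks of other genes most like this Alox12b peak by Pearson correlation were at Alg9 (r = 0.984), Hamp (0.982) and the start shared by 9430097D07Rik and Pip5kl1 (0.977). For Alox12 they were at Procr (0.959), Dock6 (0.928) and Gpr176 (0.922). The libraries share 4 groups and differ in depth, so these values describe the pattern across groups.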

How the data were processed

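ATAC libraries of 24 BMDM cultures (6 per group, N = 6 animals per group in a single experiment per the study's methods) were compared. The authors aligned reads to mm10, called broad peaks per library with MACS2, merged them into a consensus set and deposited counts of fragments per consensus peak made with featureCounts 2.0.1 (any fragment with a fraction of 0.2 of its length in a peak, also in several peaks). The deposited broad peak lists hold −log10 q values. Coordinates are as deposited, where a start equals the zero-based broad peak start. Sequences were read from GRCm38.p6, the assembly that mm10 names.

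Counts were filtered with filterByExpr, scaled by TMM and tested with edgeR 4.0.16 (quasi-likelihood, robust, R 4.3.3) over all 24 libraries with group as the only term, and p-values were adjusted by Benjamini-Hochberg over all 174193 tested peaks. A DAR had a fold change of at least 1.5 and an adjusted p of at most 0.05. The fit was tested on simulated data. The genes, lists and motifs were chosen with earlier results of these data known. Named were the TSS peak of each gene and up to 3 further DARs by smallest p, and Ephx1 peaks at 180957097, 181009848 and 181015630 were added after their values were seen. Alternatives were other size factors, loess offsets, no filter, DESeq2 1.42.0, pairwise fits, a replicate block, other thresholds, a window of 5000 bp and each library left out. No pair of libraries of a group was alike within sampling noise. The Cyp2c44 gene was matched as Cyp2c23.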

Additional observations from a re-analysis of the deposited data

Results flagged for a closer look

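The response to LPS differed between the genotypes, by the interaction term of the edgeR fit (adjusted p of at most 0.05 and at least 1.5-fold), at 4 member peaks. The interaction was -1.68 on the log2 scale at the Alox12 peak 8824 bp upstream, -0.86 at the Ephx1 intronic peak 7452 bp from the TSS, -1.17 at the Ephx1 intronic peak 1816 bp from the TSS and -1.45 at the Ephx2 peak 1856 bp upstream. At the Ephx1 peak 7452 bp from the TSS the call held with each of the 24 libraries left out in turn, and at the other 3 it did not. The Alox12 and Ephx2 peaks passed the low-count filter only through the group where they were highest, so their interaction tests are not independent of that choice.

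In 80 sets of 6 libraries (20 named peaks in 4 groups), 3 held a library far from the other 5 by Dixon's criterion at the 95% level, where chance gives about 1 in 20 sets. All 3 were WT unstimulated libraries. At the exonic Aloxe3 peak 8491 bp from the TSS, replicate 6 was at 8.35 CPM and the others at 8.996 to 9.29 CPM. At the Ephx1 TSS peak, replicate 6 was at 10.2 CPM and the others at 9.06 to 9.28 CPM. At the Ephx2 peak 1856 bp upstream, replicate 5, the shallowest library with 8.54 M counts, was at 0.116 CPM and the others at 0.308 to 0.413 CPM.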

How the results depend on the processing

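Counts of DARs among the 38 tested peaks depended mostly on the fold threshold. Shares of all peaks at other fold thresholds are given only for the genotype comparisons with no minimum fold (40.1% at rest, 44.7% with LPS). The remaining counts at those thresholds describe the member peaks alone. With at least 2-fold required, WT LPS gave 7 higher and 2 lower, AhR-KO LPS gave 5 higher, and the LPS genotype comparison gave 0 higher. With no minimum fold there were 14 higher in resting AhR-KO, 8 higher in AhR-KO with LPS, 7 lower with LPS in WT and 10 negative interactions. Within 5000 bp of the genes there were 2 higher in resting AhR-KO, 1 higher in AhR-KO with LPS, and 5 lower with LPS in AhR-KO cells. That window holds fewer peaks, so these counts are not out of 38. Over all tested peaks the shares of such DARs were 9.96%, 13.4% and 21.5%. Resting AhR-KO gave 7 higher with DESeq2-type (RLE) size factors. DESeq2, run on all 39 member peaks without the low-count filter, gave 4 higher in AhR-KO with LPS. In either direction that was 7, or 17.9% against 25.6% of all peaks. Searching whole peaks gave 19 with an AhR core and 15 with a response element, with no share over all peaks at hand for that longer search. With 1 library left out, peaks higher in AhR-KO with LPS numbered 2 to 5 and negative interactions 2 to 6. Of 58 named log2 values, no alternative reversed any, and a stricter overlap rule left the number of peak calls at 533.

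Under a replicate block shared by both genotypes, counts were 4 higher and 0 lower for the resting genotype comparison, 2 and 3 for the LPS genotype, 12 and 4 for WT LPS, 11 and 9 for AhR-KO LPS and 0 and 4 for the interaction. Over all 174193 tested peaks, the DARs of these comparisons in either direction were 39950, 46434, 82144, 85493 and 19878. The labels do not say what a shared number marks. Same-numbered WT libraries deviated together with r of 0.0486 to 0.343 (mean 0.234, against -0.0452 for other numbers, 4 of 6 best with their own number). AhR-KO libraries did so with r of 0.00877 to 0.210 (mean 0.108 against -0.0214, 3 of 6). Between genotypes the same-number mean was 0.00539 at rest and 0.0614 with LPS. Pairing within a genotype is thus not excluded, and the main fit does not use it. A block within genotype gave 23404 interaction DARs over all 174193 tested peaks, against 18128 in the main fit.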

Other observations

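The single member peak that was not tested, in Aloxe3 on chromosome 11 from 69142517, had too few counts for the filter. It had 0 to 3 counts per WT unstimulated library, 0 to 4 in AhR-KO unstimulated, 3 to 11 in WT LPS and 8 to 28 in AhR-KO LPS libraries. That is 0.188 ± 0.0797 CPM in WT LPS and 0.713 ± 0.327 CPM in AhR-KO LPS libraries (SD, n = 6), with every AhR-KO LPS library between 0.325 and 1.13 CPM and every WT LPS library between 0.0897 and 0.315 CPM. The authors' caller had found it in 2 of 6 AhR-KO LPS libraries and in no other library.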
